A study of Mus musculus with 16 samples.

Results

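Cadherins and protocadherins are the cell surface proteins that hold neighbouring neurons together at axons, dendrites and synapses, and the levels of their transcripts were described here in the medial prefrontal cortex (mPFC) of mice with knockdown of the histone demethylase gene Kdm7a. The members were all known genes of the deposited table whose symbol is Cdh followed by a number, or starts with Pcdh. This rule found 93 members among the 26625 entries of the table, of which 19069 are known genes. After the filter on low counts, 75 of the 93 members could be tested.

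Classical cadherins bind the same or a related cadherin on the opposing membrane through their extracellular repeats and are anchored to actin by catenins. Protocadherins carry more repeats and other cytoplasmic tails, and some delta-2 protocadherins act on actin through the WAVE complex. The alpha, beta and gamma protocadherins of the 3 gene clusters give each neuron its own combination of surface proteins. In the cortex both families are known for the sorting of axons, the matching of synaptic partners and the shaping of dendrites.

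The study asked which genes depend on Kdm7a in the mPFC during withdrawal from morphine. All mice were male C57BL/6 animals of 8 to 10 weeks, and all received an adeno-associated virus on both sides of the mPFC. The virus carried a short hairpin RNA under the U6 promoter with EGFP under the CMV promoter, neither of which is restricted to 1 cell type, and the hairpin was either a negative control (Ctrl) or directed at Kdm7a (Kdm7a-shRNA). Mice were then conditioned over 10 days with saline or with morphine at 10 mg/kg, and mPFC tissue was collected on day 17, which was the seventh day of withdrawal. Full-length cDNA was sequenced on the Nanopore platform from 7 mice with the control virus, 3 Ctrl + Saline and 4 Ctrl + Morphine, and 9 with the Kdm7a virus, 5 Kdm7a-shRNA + Saline and 4 Kdm7a-shRNA + Morphine. RNA came from whole mPFC tissue that was not sorted for cells carrying the virus.

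Libraries held 6596991 to 12418112 counts per mouse. Levels are given as normalized CPM, that is the count relative to the library size after scaling by TMM factors, which allow for the composition of a library and not for the length of a gene, so levels are compared between mice and not between genes. Fold changes are on the log2 scale with their standard error (SE), and adjusted p-values are from edgeR's quasi-likelihood test over the 18826 tested entries. An entry passed if its adjusted p was under 0.05 and its level changed by 1.5-fold or more. Kdm7a was at 9.42 ± 0.353 normalized CPM (SD, n = 3) in Ctrl + Saline and 5.55 ± 0.571 (n = 5) in Kdm7a-shRNA + Saline mice, and fell (log2 fold change -0.76, adjusted p = 0.0153). It was at 7.72 ± 1.13 (n = 4) in Ctrl + Morphine and 4.94 ± 1.53 (n = 4) in Kdm7a-shRNA + Morphine mice (log2 fold change -0.67, adjusted p = 0.0506). The ranges overlapped between the morphine groups, at 6.19 to 8.89 against 3.01 to 6.28.

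The 3 members that passed in a comparison were Pcdh17, Pcdh8 and Cdh9, and all were lower with Kdm7a-shRNA. Their promoters are shown because the factor that was knocked down acts on chromatin at genes, and to let a reader compare the sequences in front of the members that fell. Each is the 250 bases before the transcription start in RefSeq on GRCm38.p6, 5′ to 3′ on the strand of the gene, with capitals marking the CCAAT box (CCAAT, or its reverse complement ATTGG). Pcdh17 lies at chr14:84443563-84539002 on the plus strand, and its promoter at chr14:84443313-84443562.
Pcdh17: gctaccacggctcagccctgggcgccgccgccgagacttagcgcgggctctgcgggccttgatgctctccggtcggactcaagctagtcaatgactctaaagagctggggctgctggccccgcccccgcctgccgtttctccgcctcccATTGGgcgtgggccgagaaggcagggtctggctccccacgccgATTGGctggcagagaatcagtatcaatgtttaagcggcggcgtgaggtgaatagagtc
Pcdh8 lies at chr14:79766775-79771312 on the minus strand, 4.67 Mb from Pcdh17, while Pcdh20, which did not pass, lies 3.93 Mb from Pcdh17. The Pcdh8 promoter is at chr14:79771313-79771562.
Pcdh8: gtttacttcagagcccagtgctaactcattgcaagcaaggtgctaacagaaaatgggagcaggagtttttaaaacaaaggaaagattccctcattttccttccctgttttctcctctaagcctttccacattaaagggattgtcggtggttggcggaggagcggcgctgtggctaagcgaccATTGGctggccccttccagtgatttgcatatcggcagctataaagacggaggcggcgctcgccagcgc
Cdh9 lies at chr15:16728756-16857094 on the plus strand, and its promoter before the RefSeq start at chr15:16728665-16728914.
Cdh9: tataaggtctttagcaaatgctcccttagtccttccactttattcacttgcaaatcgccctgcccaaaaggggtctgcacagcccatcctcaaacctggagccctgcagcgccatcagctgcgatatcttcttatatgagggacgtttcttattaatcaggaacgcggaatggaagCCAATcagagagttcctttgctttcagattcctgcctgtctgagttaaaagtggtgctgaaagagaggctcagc
The Pcdh17 window held 21 CpG and 2 CCAAT boxes, whose first letters lie 101 and 58 bases before the start. The Pcdh8 window held 11 CpG, a CCAAT box 68 bases before the start and a TATAAA match. The Cdh9 window held 6 CpG, equal to the median of 6 over all promoters, and a CCAAT box 74 bases before the start.

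A CCAAT match on either strand was found in 33.8% of the 32851 promoters of this length and in 15 of the 25 promoters listed for 22 members outside chromosome 18. The cyclic AMP response element TGACGTCA was found in 0 of these 25 promoters and in 1.55% of all. GGGCGG was found in 9 of the 25 and in 32.7% of all, and TATAAA in 2 of the 25 and in 12.4% of all. These motifs were chosen after the sequences had been seen, and a match is a description of the letters only.

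Before members were counted, the clustered protocadherins were compared with each other. In the alpha and gamma clusters each gene has its own first exon and joins it to constant exons that all genes of the cluster share, 3 in the 14 alpha genes and 2 in the 22 gamma genes of the GENCODE annotation. The 22 gamma entries, at chr18:37661793-37841873, rose and fell together over the mice. In 19 of them, the lowest included, the count stayed within 5% of that of the lowest entry, Pcdhgb4, which ranged from 1254 to 3126 over the mice. The other entries stayed at nearly constant multiples of it: Pcdhgc5 held 1.036 to 1.064 times, Pcdhgc4 1.999 to 2.01 times and Pcdhgc3 5.61 to 5.69 times the Pcdhgb4 count. A chi-square statistic of the counts of a pair of entries over the 16 mice, divided by its degrees of freedom, is near 1 for independent reads and was 0.00118 to 0.0927 in the 231 gamma pairs.

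The 14 alpha entries, at chr18:36930184-37187661, formed such a set too, with a statistic of 0.00783 to 0.442 in 91 pairs. Among them 5 stayed within 5% of the lowest, Pcdha8, at 125 to 246 counts, and Pcdha6 was the highest at 2.01 times on average. The table also holds 2 entries with the symbol Pcdha11, which differed, since 1 stayed at 1.01 times and the other at 1.64 times Pcdha8. The 22 beta genes, at chr18:37264938-37524479, share no such exons, and their 0 to 55 counts varied separately, with a statistic of 0.389 to 3.72 over 66 pairs of the 12 entries compared. Within the alpha and within the gamma cluster, the pattern of the entries over the mice therefore differed by less than the sampling noise. Their levels did differ, by the multiples given above. Each of these 2 clusters was taken as 1 measurement, represented by Pcdha8 and Pcdhgb4. This leaves 59 measurements among the members, 41 of them tested, and no value of a single alpha or gamma isoform can be read from this table.

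**Figure D1:**
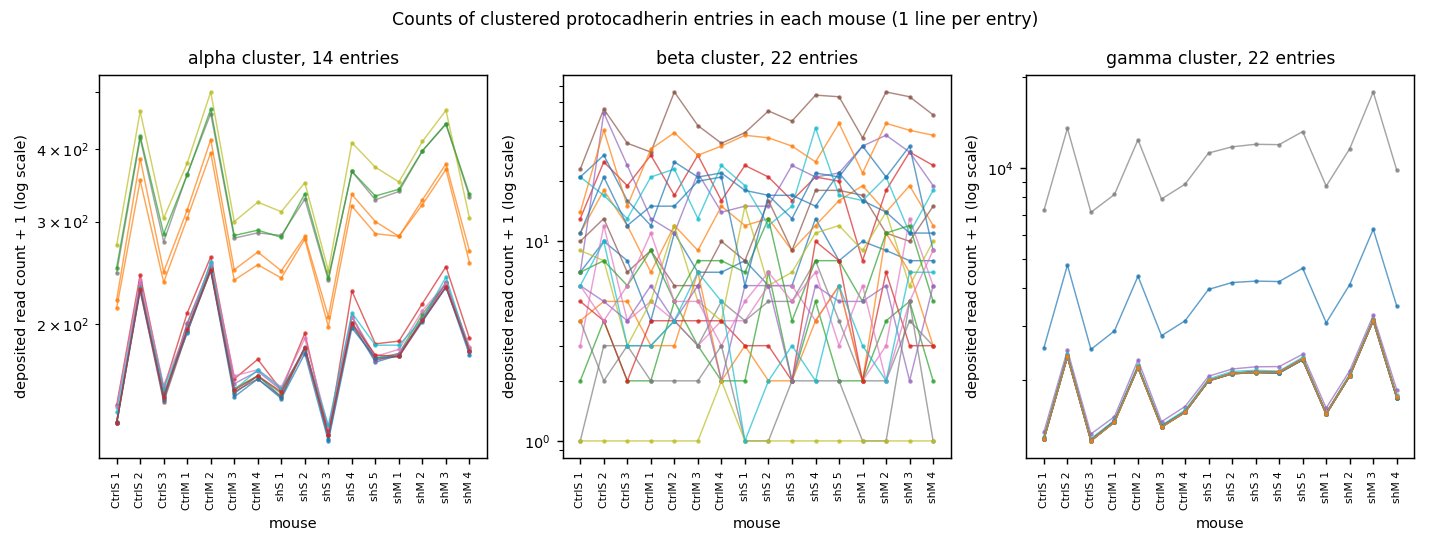
Deposited read count plus 1 (log scale) of each clustered protocadherin entry, 1 line per entry, in the 16 mice. On the axis Ctrl and sh stand for the virus, S and M for saline and morphine, the beta lines cross, and the gamma lines run in parallel with Pcdhgc3 at 5.61 to 5.69 times and Pcdhgc4 at 1.999 to 2.01 times the lowest.

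Under saline, Kdm7a-shRNA mice had less Pcdh17 and less Cdh9 than Ctrl mice. These were the 2 members of 75 that passed, both lower and none higher. Among all tested entries 16.7% passed and 9.31% were lower, and among the 14162 tested known genes 2.98% were lower and 9.0% higher. Counted as measurements, with the alpha and gamma clusters taken once each, 2 of 41 were lower. The unadjusted p was under 0.05 for 33 members, 22 of them gamma entries, or for 12 of the 41 measurements, where 34.7% of all tested entries had one. The median log2 fold change was -0.22 over the 41 measurements, 16 of which were above and 25 below 0, beside 0.01 over all tested entries and 0.10 over the known genes.

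Pcdh17 is a delta-2 protocadherin of corticostriatal synapses and axons. In Ctrl + Saline mice it was at 17.2, 26.7 and 18.5 normalized CPM, and in Kdm7a-shRNA + Saline mice at 8.04, 7.83, 8.89, 18.8 and 10.4. The fourth Kdm7a-shRNA mouse lay within the range of the Ctrl mice and the other 4 below it. The log2 fold change was -0.95 (SE 0.268, adjusted p = 0.019), a 1.94-fold lower level. In Ctrl + Morphine mice Pcdh17 was at 12.3, 20.7, 14.5 and 17.8 and in Kdm7a-shRNA + Morphine mice at 10.4, 11.8, 8.25 and 14.9 normalized CPM, so the morphine groups overlapped. That difference did not pass (log2 fold change -0.53, adjusted p = 0.221), and the knockdown effects under saline and morphine were not shown to differ (difference 0.42, 95% interval from the SE -0.32 to 1.17).

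Cdh9 is a type II classical cadherin known from the hippocampus, where it matches mossy fibres to their targets. It was at 6.08, 7.32 and 5.17 normalized CPM in Ctrl + Saline mice and at 4.02, 2.88, 2.73, 4.50 and 2.91 in Kdm7a-shRNA + Saline mice. The groups did not overlap, and Cdh9 fell by 0.86 on the log2 scale (SE 0.238, adjusted p = 0.0174). With morphine it was at 4.69, 5.55, 4.26 and 4.17 in Ctrl and at 6.59, 3.24, 4.04 and 4.96 in Kdm7a-shRNA mice, where the Kdm7a-shRNA range enclosed that of Ctrl (log2 fold change -0.01, adjusted p = 0.992). The difference between these knockdown effects was 0.86 (SE 0.335, unadjusted p = 0.0196, adjusted p = 0.34 by edgeR's quasi-likelihood test) and did not pass. Without the second Ctrl + Saline mouse, neither gene passed under saline, with an adjusted p of 0.100 for Cdh9 and 0.128 for Pcdh17.

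Averaged over saline and morphine, Pcdh8 and Pcdh17 were lower in Kdm7a-shRNA mice, and gamma protocadherins were higher by less than 1.5-fold. Of the 75 members 2 passed, both lower, against 17.6% of all tested entries (9.93% lower) and 2.12% of known genes lower. The unadjusted p was under 0.05 for 32 members, 22 of them gamma entries, or for 11 of the 41 measurements, where 38.8% of all tested entries had one. With the adjusted p alone, 3 members were lower and the 22 gamma entries higher, where 13.9% of all tested entries were lower and 13.6% higher. This average is built from the separate effects under saline and under morphine and is not independent of them.

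Pcdh8, also called arcadlin, is an activity-induced delta-2 protocadherin that draws N-cadherin from the synaptic membrane. The tissue was taken straight after a place preference test, and the part of that test in the Pcdh8 levels was not tested. Pcdh8 levels in Ctrl + Saline mice were 5.95, 6.44 and 4.37 normalized CPM, and in Kdm7a-shRNA + Saline mice 4.14, 2.30, 1.30, 2.92 and 2.71. In Ctrl + Morphine mice they were 7.99, 7.68, 10.2 and 8.34, and in Kdm7a-shRNA + Morphine mice 2.76, 3.48, 0.516 and 7.65. Every Kdm7a-shRNA mouse was below every Ctrl mouse of the same treatment, although the highest Kdm7a-shRNA + Morphine mouse was only just below the lowest Ctrl + Morphine mouse. The averaged log2 fold change was -1.17 (SE 0.323, adjusted p = 0.0116), a 2.26-fold lower level. The separate effects did not pass, at -1.06 under saline (adjusted p = 0.115) and -1.29 under morphine (adjusted p = 0.0766), with 6 to 84 counts per mouse behind the values. Pcdh8 passed under saline in a fit of the saline groups alone (adjusted p = 0.0303) and without the third Kdm7a-shRNA + Morphine mouse (0.025), and under morphine without the fourth Kdm7a-shRNA + Morphine mouse (log2 fold change -1.99, adjusted p = 0.00814). For Pcdh17 the averaged log2 fold change was -0.74 (SE 0.189, adjusted p = 0.00734).

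**Figure D2:**
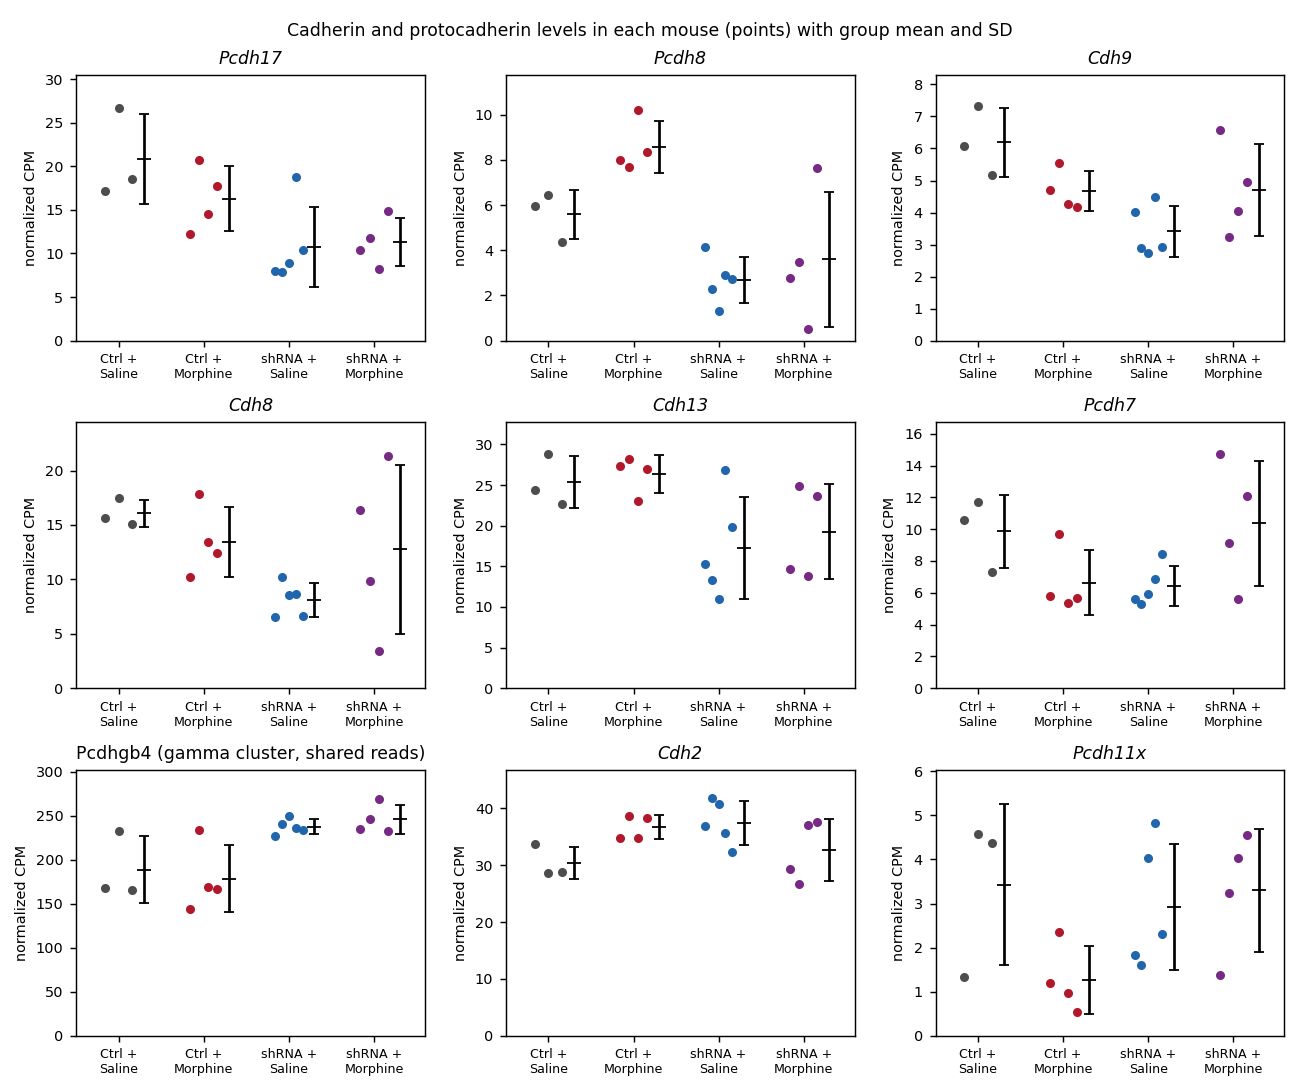
Normalized CPM of 9 members in each mouse (points) by group, with the mean and SD of the group (bar). Pcdh8 in Kdm7a-shRNA mice lay below the Ctrl mice of the same treatment, Pcdh17 in 1 Kdm7a-shRNA + Saline mouse reached 18.8 within the Ctrl range, and the gamma entry Pcdhgb4 was at 227 or more in all Kdm7a-shRNA mice and in 2 Ctrl mice.

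The gamma cluster was represented by its lowest entry, Pcdhgb4, and the level of the whole cluster is not known. Pcdhgb4 was at 168, 232 and 166 normalized CPM in Ctrl + Saline mice and at 145, 234, 169 and 167 in Ctrl + Morphine mice. In Kdm7a-shRNA + Saline mice it was at 227, 241, 249.9, 237 and 233, and in Kdm7a-shRNA + Morphine mice at 235, 246, 269 and 233. The second mouse of each Ctrl group lay within the range of the Kdm7a-shRNA mice and the other 5 Ctrl mice below it. Gamma protocadherins are known for dendrite self-avoidance and the survival of interneurons. The averaged log2 fold change of the 22 entries was 0.39 to 0.40 with an adjusted p of 0.00561 to 0.00703, below the fold threshold. Under morphine it was 0.46 to 0.47 (adjusted p 0.0375 to 0.0419) and under saline 0.32 to 0.33 (adjusted p 0.102 to 0.123). The interaction for Pcdhgb4 was 0.13 (adjusted p = 0.874). With libraries scaled by their size alone, which put the median over all tested entries at -0.12 under saline and -0.11 under morphine, the log2 fold change of Pcdhgb4 was 0.28 averaged (adjusted p = 0.0335) and 0.36 under morphine (adjusted p = 0.086).

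Under morphine, 0 of the 75 members passed by edgeR's quasi-likelihood test, where 7.69% of all tested entries and 4.64% of known genes passed. The unadjusted p was under 0.05 for 28 members, 22 of them gamma entries, or for 7 of the 41 measurements, where 25.5% of all tested entries had one. DESeq2 passed 1 member, Pcdh11x, and 9.02% of the entries to which it gave an adjusted p. With the adjusted p alone the 22 gamma entries, which are 1 measurement, were higher, against 3.93% of all tested entries. For Pcdhgb4 that call was lost when any of 7 mice was left out, among them 3 of the 4 Ctrl + Morphine mice, with adjusted p-values of up to 0.120. The X-linked delta-1 gene Pcdh11x was at 1.20, 2.35, 0.974 and 0.535 normalized CPM in Ctrl + Morphine mice and at 1.38, 3.24, 4.04 and 4.56 in Kdm7a-shRNA + Morphine mice, with overlap (log2 fold change 1.39, adjusted p = 0.083).

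The delta-2 protocadherins are Pcdh8, Pcdh10, Pcdh17, Pcdh18 and Pcdh19, some of which act on actin through the WAVE complex. All 5 had a log2 fold change below 0 in each knockdown comparison, with a median of -0.48 under saline, -0.53 under morphine and -0.46 averaged. Of the 18826 tested entries 9168, 9492 and 9186 were below 0 in this order. In the averaged comparison 2 of the 5 passed, where 9.93% of all tested entries passed as lower, and the other delta-2 genes had adjusted p-values of up to 0.297. Pcdh10 was at 35.7 ± 4.93 normalized CPM (SD, n = 3) in Ctrl + Saline and 33.7 ± 6.48 (n = 5) in Kdm7a-shRNA + Saline mice, and its averaged log2 fold change was -0.16. Pcdh19, the X-linked gene of an epilepsy syndrome, was at 14.5 ± 6.11 (n = 3) and 10.5 ± 3.94 (n = 5) in these groups and had an averaged log2 fold change of -0.46 (adjusted p = 0.155).

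The 4 tested delta-1 protocadherins, Pcdh1, Pcdh7, Pcdh9 and Pcdh11x, all had a log2 fold change below 0 under saline, with a median of -0.31. Of the 4, 3 were above 0 under morphine, with a median of 0.54, and 3 in the averaged comparison, with a median of 0.10. None passed by edgeR's quasi-likelihood test, with an unadjusted p under 0.05 for 1, 2 and 0 in this order, and DESeq2 passed 0, 1 (Pcdh11x) and 0. Among all tested entries 16.7%, 7.69% and 17.6% passed by edgeR, and 34.7%, 25.5% and 38.8% had an unadjusted p under 0.05. DESeq2 passed 17.8%, 9.02% and 17.9% of its entries. Pcdh7, which binds protein phosphatase 1, was at 10.6, 11.7 and 7.29 normalized CPM in Ctrl + Saline mice and at 5.63, 5.30, 5.92, 6.86 and 8.44 in Kdm7a-shRNA + Saline mice. It was at 5.79, 9.71, 5.36 and 5.67 in Ctrl + Morphine mice and at 14.7, 9.11, 5.58 and 12.1 in Kdm7a-shRNA + Morphine mice. Its level was thus lower with knockdown on average under saline (log2 fold change -0.62, adjusted p = 0.124) and higher on average under morphine (0.62, adjusted p = 0.159), with overlap in each case. The difference of these effects was 1.24 (SE 0.39, adjusted p = 0.22), with the smallest adjusted p of any member in the interaction, and did not pass. Pcdh1 and Pcdh9 had averaged log2 fold changes of 0.19 (adjusted p = 0.473) and -0.25 (adjusted p = 0.319).

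Of the 12 tested type II classical cadherins, 9 had a log2 fold change below 0 under saline and 1, Cdh9, passed. Among the 18826 tested entries 9168 were below 0 and 9.31% passed as lower. Cdh8, a type II cadherin of cortical projection neurons and their synapses, was at 15.6, 17.5 and 15.1 normalized CPM in Ctrl + Saline mice and at 6.55, 10.3, 8.53, 8.66 and 6.63 in Kdm7a-shRNA + Saline mice. The groups did not overlap, while the log2 fold change of -0.98 (SE 0.362) had an adjusted p of 0.0588. Cdh8 passed with DESeq2 (-0.99, adjusted p = 0.0366), which passed 17.8% of entries under saline, with libraries scaled by size alone (-1.12, adjusted p = 0.0341) and in a fit of the saline groups alone (adjusted p = 0.00407). It also passed without the third or the fourth Kdm7a-shRNA + Morphine mouse (adjusted p = 0.00604 and 0.0343). In Kdm7a-shRNA + Morphine mice it ranged from 3.44 to 21.3, on either side of the 10.2 to 17.8 of Ctrl + Morphine mice (log2 fold change -0.10, adjusted p = 0.89). Cdh10 was at 21.3 ± 0.279 (SD, n = 3) and 20.2 ± 1.77 (n = 5) normalized CPM in the saline groups. Cdh11, a broadly expressed type II cadherin, was at 51.9 ± 1.46 (n = 3) and 44.6 ± 8.17 (n = 5) there, for a difference of -0.22 on the log2 scale (adjusted p = 0.293). Cdh5, the cadherin of vascular endothelium, was at 0.661 to 0.976 normalized CPM in Ctrl + Saline and 1.01 to 2.13 in Kdm7a-shRNA + Saline mice, without overlap, on 5 to 19 counts per mouse (log2 fold change 1.02, adjusted p = 0.115). With morphine Cdh5 held 15, 10, 15 and 9 counts in Ctrl and 7, 12, 34 and 5 in Kdm7a-shRNA mice.

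Cdh2 encodes N-cadherin, the main classical cadherin of excitatory synapses. It was at 30.4 ± 2.87 (SD, n = 3), 36.7 ± 2.14 (n = 4), 37.5 ± 3.89 (n = 5) and 32.7 ± 5.49 (n = 4) normalized CPM in Ctrl + Saline, in Ctrl + Morphine, in Kdm7a-shRNA + Saline and in Kdm7a-shRNA + Morphine mice. The averaged log2 fold change was 0.07, with a 95% interval from the SE of -0.12 to 0.25. Cdh4, or R-cadherin, had a log2 fold change of -0.45 under saline (adjusted p = 0.176) and 0.02 under morphine (adjusted p = 0.972). Cdh1, the epithelial E-cadherin, had 0 to 9 counts per mouse and was not tested.

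Cdh13 encodes T-cadherin, which is held in the membrane by a lipid anchor and has no cytoplasmic tail. In Ctrl + Saline mice it was at 24.5, 28.9 and 22.7 normalized CPM and in Kdm7a-shRNA + Saline mice at 15.3, 13.4, 11.02, 26.9 and 19.8. In Ctrl + Morphine mice it was at 27.4, 28.2, 23.0 and 27.0 and in Kdm7a-shRNA + Morphine mice at 14.7, 24.9, 13.7 and 23.6. Of the 9 Kdm7a-shRNA mice 6 lay below the Ctrl mice of their treatment and 3 among them, the fourth saline mouse included. The averaged log2 fold change was -0.50 (adjusted p = 0.0346), under the fold threshold. The adjusted p rose above 0.05, to at most 0.0925, in 9 of the 16 fits that left out a mouse.

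The beta protocadherins, which have their own reads, were tested in 10 of 22 genes. None of the 10 passed in a knockdown comparison by edgeR's quasi-likelihood test, against 16.7% of all tested entries under saline, 7.69% under morphine and 17.6% averaged. The unadjusted p was under 0.05 in 1 under saline, 3 under morphine and 3 averaged, against 34.7%, 25.5% and 38.8% of all tested entries. DESeq2 passed 0 in each, against 17.8%, 9.02% and 17.9% of its entries. The averaged log2 fold changes ranged from -0.15 to 0.74 with a median of 0.30, and 7 of the 10 were above 0. The alpha cluster, measured by Pcdha8, was at 19.8 ± 2.23 (SD, n = 3), 20.2 ± 4.12 (n = 4), 18.3 ± 2.87 (n = 5) and 23.6 ± 2.87 (n = 4) normalized CPM in Ctrl + Saline, in Ctrl + Morphine, in Kdm7a-shRNA + Saline and in Kdm7a-shRNA + Morphine mice, with an averaged log2 fold change of 0.05 (adjusted p = 0.774).

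**Figure D3:**
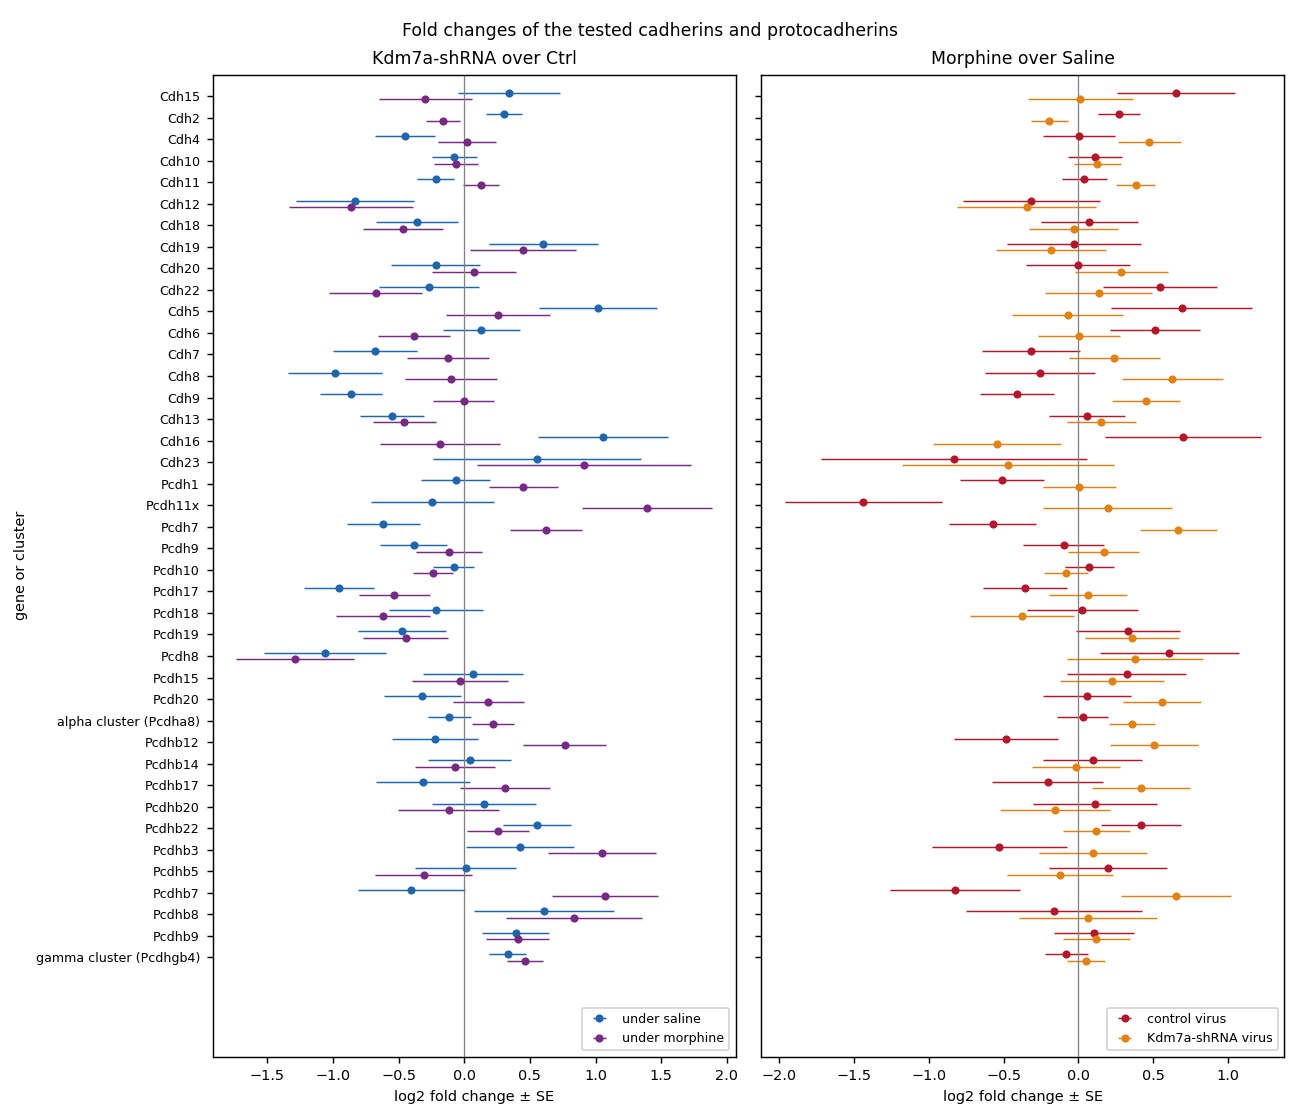
Log2 fold change ± SE of the 41 tested measurements, with Kdm7a-shRNA over Ctrl under saline and morphine on the left and Morphine over Saline under each virus on the right. The alpha and gamma clusters are each shown by 1 entry, and under saline Cdh9 (-0.86) and Pcdh17 (-0.95) passed while no member passed on the right.

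Morphine alone was compared with saline under each virus. In Ctrl mice 0 of 75 members passed by edgeR's quasi-likelihood test, where 0.0% of all tested entries passed. DESeq2 passed 0 members and 1.47% of the entries to which it gave an adjusted p, and it gave none to some members with low counts. The unadjusted p was under 0.05 for 11.7% of all tested entries and for 1 member, Pcdh11x, which was at 1.32, 4.59 and 4.37 normalized CPM in Ctrl + Saline mice and 0.535 to 2.35 in Ctrl + Morphine mice, with overlap (log2 fold change -1.44, adjusted p = 0.273). In the other direction the smallest adjusted p was that of Cdh2 (0.27, adjusted p = 0.475). In Kdm7a-shRNA mice 0 of 75 passed by edgeR, against 0.00531% of all tested entries, and 0 by DESeq2, against 0.132% of its entries. The unadjusted edgeR p was under 0.05 for 16 members, 12 of them entries of the alpha cluster, or for 5 of the 41 measurements, where 7.02% of all tested entries had one. The smallest adjusted p was that of Cdh11 (log2 fold change 0.38, adjusted p = 0.614) and, among lower members, of Cdh2 (-0.20, adjusted p = 0.774). Pcdh20 had a log2 fold change of 0.56 there (adjusted p = 0.712). In the interaction 0 of 75 passed by edgeR, against 0.085% of all tested entries, and 0 by DESeq2, against 1.36% of its entries. The unadjusted edgeR p was under 0.05 for 6 members and 10.7% of entries, and the lower member with the smallest adjusted p was Cdh2 (-0.47, adjusted p = 0.361). Of the 4 striatal marker genes, which bear on the place of dissection, Ppp1r1b was at 51.3 ± 11.5 (SD, n = 3) normalized CPM in Ctrl + Saline and 102.5 ± 14.4 (n = 4) in Ctrl + Morphine mice (log2 fold change 1.00, adjusted p = 0.155). Drd1 had mean levels of 7.43 and 9.68, Drd2 of 0.852 and 0.839 and Adora2a of 3.27 and 3.12 in these groups. The 4 genes summed to 53.9 to 75.6 in Ctrl + Saline and 99.8 to 131 in Ctrl + Morphine mice. In Kdm7a-shRNA mice the sum was 52.6 to 136 with saline and 65.5 to 90.6 with morphine. The part of these genes in the morphine and knockdown comparisons was not tested.

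The partners of these proteins were described from lists of genes, which were chosen with earlier results of these data known. Beside the calls in these lists, 16.7% of all tested entries passed under saline, 7.69% under morphine and 17.6% averaged. Among the tested known genes 9.0% were higher and 2.98% lower under saline. Among 13 tested catenins and junction partners, Jup (0.84, adjusted p = 0.00886), the plakoglobin gene, and Ctnna1 (0.64, adjusted p = 0.00849), the gene of alpha-E-catenin, rose under saline and none fell by the thresholds. Ctnnd2, a catenin of dendritic spines, rose in the averaged comparison (0.72, adjusted p = 0.011). The median of the list was 0.18 under saline, with 10 genes above 0 and 3 below, and -0.08 under morphine, with 3 above and 10 below. Averaged it was 0.04, and the medians over the tested known genes were 0.10, 0.04 and 0.07 in the same order.

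Among the 11 genes of the WAVE complex, the FAK kinases and other protocadherin partners, Abi2 fell under saline (-0.62, adjusted p = 0.0469) and Cyfip1 rose on average (0.62, adjusted p = 0.00911), both subunits of the WAVE complex. The median of this list was -0.31 under saline, -0.13 under morphine and -0.20 averaged. A list of 16 other genes of the cadherin superfamily, from the Fat, Dchs and Celsr genes to calsyntenins, desmosomal cadherins, Cdhr1 and Ret, had 12 tested and medians of -0.24, -0.24 and -0.19. It held Fat3, a giant cadherin of dendrite polarity, which fell under saline (-0.72, adjusted p = 0.00652), under morphine (-0.59, adjusted p = 0.0303) and averaged (-0.66, adjusted p = 0.000569). Celsr3, needed for the growth of axon tracts, fell under morphine (-0.74, adjusted p = 0.00811) and averaged (-0.62, adjusted p = 0.000501). Fat4 fell (-0.93, adjusted p = 0.0189) and Celsr1 rose (1.53, adjusted p = 0.0212) in the averaged comparison, the latter on 0 to 18 counts per mouse. Among 4 tested sheddases Psen2, a catalytic subunit of gamma-secretase, rose under saline (0.69, adjusted p = 0.0216), and the list had medians of 0.27, 0.23 and 0.25.

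Of the 11 regulators of clustered protocadherin promoters, such as Ctcf and the cohesin genes, 0 passed in each knockdown comparison by edgeR and by DESeq2. The unadjusted edgeR p was under 0.05 for 2 genes in each. Among all tested entries 34.7% had one under saline, 25.5% under morphine and 38.8% averaged. By edgeR 16.7%, 7.69% and 17.6% of all tested entries passed in this order, and by DESeq2 17.8%, 9.02% and 17.9% of its entries. The median log2 fold change of the regulators was -0.07 under saline, 0.12 under morphine and 0.01 in the averaged comparison. In the morphine comparisons and the interaction, 0 genes of the 5 lists passed by edgeR. DESeq2 passed 2 in Ctrl mice, 0 in Kdm7a-shRNA mice and 1 in the interaction, against 1.47%, 0.132% and 1.36% of its entries. The unadjusted edgeR p was under 0.05 for 8, 4 and 3 genes in the same order, against 11.7%, 7.02% and 10.7% of all tested entries.

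Markers of other cell types moved with the virus. For comparison, 1298 of the 14162 tested known genes passed as higher in the averaged comparison and 1275 under saline. The 5 microglial markers summed to 335 to 399.7 normalized CPM in Ctrl + Saline, 239 to 381 in Ctrl + Morphine, 494 to 1165 in Kdm7a-shRNA + Saline, and 332 to 1204 in mice with Kdm7a-shRNA and morphine, and 4 of the 5 rose in the averaged comparison. The 5 astrocyte markers summed to 344 to 491, 267 to 499, 472 to 1008 and 386 to 984 in the same order, and 3 of the 5 rose. The 5 endothelial markers summed to 127 to 164 in Ctrl + Saline and 167 to 267 in Kdm7a-shRNA + Saline mice. Of the 5, 3 rose there, beside the values of Cdh5 above, while mean Tek was lower, at 4.73 against 6.66 in Ctrl + Saline mice. With morphine the endothelial sums overlapped, at 136 to 165 in Ctrl and 152 to 272 in Kdm7a-shRNA mice. No marker of these 3 lists was at 0 in a mouse. The 5 oligodendrocyte markers, most of whose sum is Mbp, summed to 7251 to 12587, 6814 to 12707, 8157 to 17733 and 8628 to 19397 normalized CPM in the order of the microglial sums, with overlap. Of these 5, 0 passed by edgeR's quasi-likelihood test in each knockdown comparison, with an unadjusted p under 0.05 for 0 under saline, 1 under morphine and 1 averaged, and DESeq2 passed 0, 0 and 1. Among all tested entries 16.7%, 7.69% and 17.6% passed by edgeR in this order, and 34.7%, 25.5% and 38.8% had an unadjusted p under 0.05. DESeq2 passed 17.8%, 9.02% and 17.9% of its entries.

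The 5 markers of pyramidal neurons summed to 1027 to 1441, 997 to 1549.6, 695 to 1207 and 845 to 1467 normalized CPM in the same order of groups. Of the 5, 0 passed by edgeR's quasi-likelihood test in each knockdown comparison. The unadjusted p was under 0.05 for 3 under saline, 1 under morphine and 3 averaged, against 34.7%, 25.5% and 38.8% of all tested entries. DESeq2 passed 2, 0 and 0, against 17.8%, 9.02% and 17.9% of its entries. In each of the 4 groups the mouse with the highest sum of pyramidal markers was also the mouse with the highest Pcdh17, namely the second mouse of each Ctrl group and the fourth of each Kdm7a-shRNA group. The 5 markers of inhibitory neurons summed to 409 to 460.1, 441 to 483, 289 to 381 and 332 to 428, with Sst (-1.07) and Gad2 (-0.60) lower and Pvalb (0.75) and Slc32a1 (0.63) higher in the averaged comparison, each past the thresholds. In bulk tissue, fewer cells of a type and less RNA per cell cannot be told apart. The part of these markers in the fall of Pcdh17, Pcdh8 and Cdh9 and in the level of the gamma cluster was not tested.

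**Figure D4:**
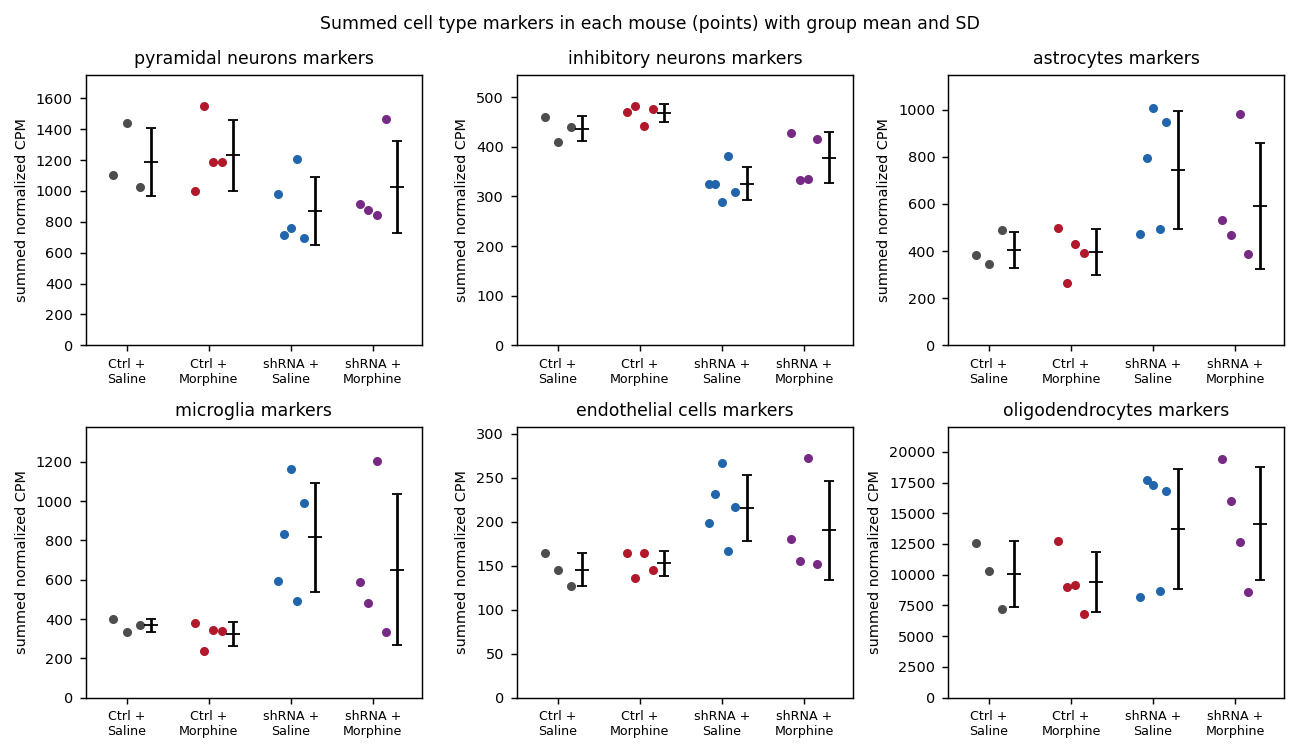
Summed normalized CPM of the marker genes of 6 cell types in each mouse (points) by group, with the mean and SD of the group (bar). Microglial markers reached 1165 in Kdm7a-shRNA + Saline and 1204 in Kdm7a-shRNA + Morphine mice and stayed at 399.7 or less in Ctrl mice.

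Gene length moved with the groups as well. The median longest transcript was 4733 bp over the 75 tested members, 36 of which are alpha and gamma entries, against 3465.5 bp over the tested known genes. The library method reads cDNA from end to end. Genes with a transcript of 1000 bp stood on average -0.10 from the mean of all mice on the log2 scale in Ctrl + Saline and 0.11 in Kdm7a-shRNA + Saline mice, and genes of 8000 bp stood at 0.05 and -0.03. With this trend removed from each mouse, Cdh9 (-0.97, adjusted p = 0.00925) and Pcdh17 (-0.78, adjusted p = 0.0289) passed under saline, and Pcdh17 (-0.60, adjusted p = 0.0127) and Pcdh8 (-1.20, adjusted p = 0.0104) in the averaged comparison. Cdh8 then passed under saline too (-1.04, adjusted p = 0.0468).

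The 18 members that were not tested held 0 to 12 counts per mouse. They were 12 beta protocadherins with Cdh1, Cdh3, Cdh17, Cdh24, Cdh26 and Pcdh12, and changes in them were not detectable at this depth.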

How the data were processed

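The deposited count of a gene in a mouse is the number of full-length Nanopore cDNA reads that the authors assigned to it, without normalization, and the deposited CPM equals the authors' count over its column total to within 4.99e-06. Per the methods, reads were filtered on quality and length, cleared of ribosomal RNA, clustered on mm10 with minimap2 and Pinfish and merged with cDNA Cupcake. The submitters' processing notes name minimap2 and edgeR 3.8.6. How reads that match shared exons were split between genes is not given in the sources used here.

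The counts were tested with edgeR 4.0.16 and limma 3.58.1 under R 4.3.3. Entries were filtered with filterByExpr on the 4 groups with TMM scaling, and the quasi-likelihood test of edgeR was run on 1 fit of all 16 mice with 1 term per group. Adjustment was by Benjamini-Hochberg over 18826 tested entries. SE is the absolute log2 fold change over the square root of the F statistic, and the biological coefficient of variation was 0.215. The comparisons were knockdown under saline, under morphine and averaged, morphine under each virus, and the interaction. Positions and transcript lengths are from GENCODE vM21 on GRCm38 and promoters from RefSeq. The code was tested on simulated data. Alternatives were other scalings and filters, the compared groups alone, known genes only, DESeq2 1.42.0, a replicate block, a per-mouse trend of counts with transcript length (lowess span 0.3), the adjusted p alone and leaving out each mouse. Transcript tables were not used here.

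The members and all lists were chosen with earlier results of these data known. Named members were those that passed, the member with the smallest adjusted p in each direction where fewer than 3 passed, and a fixed set of brain cadherins and protocadherins. Listed partner genes were named where they passed. The same replicate number in different groups marks different animals. In the 3 same-numbered pairs of the Ctrl groups the deviations from the group means correlated at 0.110 to 0.207. The fourth Ctrl + Morphine and the third Ctrl + Saline mouse, with different numbers, correlated at 0.133. The labels give no pairing, the main fit had no term for the number, and a replicate block was run only as an alternative. The p-values measure the spread between mice. Of the members 93 have an annotated length.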

Additional observations from a re-analysis of the deposited data

Results flagged for a closer look

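Among 63 groups of 4 or 5 mice examined over 21 named genes, 4 held a mouse whose level stood apart from the rest of its group, and chance alone gives about 1 in 20 groups. Pcdh17 was at 18.8 normalized CPM in the fourth Kdm7a-shRNA + Saline mouse, with the next mouse at 10.4. Pcdh10, another delta-2 protocadherin, was at 45.2 in the same mouse, with the next at 31.8. That mouse also had the highest pyramidal marker sum (1207) and the lowest microglial marker sum (494) of its group, and the part of these in its protocadherin levels was not tested. Pcdh7 was at 9.71 in the second Ctrl + Morphine mouse, with the next at 5.79. Cdh1 was at 0.773 in the third Kdm7a-shRNA + Morphine mouse, on at most 9 counts, with the next at 0.240. That mouse had the highest microglial marker sum of all mice (1204).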

How the results depend on the processing

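Under saline the count of members that passed, 2, was 5 with the compared groups alone (Cdh7, Cdh8, Cdh9, Pcdh8 and Pcdh17) and 2 or 3 under the other alternatives run. Leaving out each mouse gave 1 to 5. It was 1 without the second Ctrl + Saline mouse (Pcdhb22), 4 without the fourth Kdm7a-shRNA + Saline mouse and 5 without the third Kdm7a-shRNA + Morphine mouse. Under morphine the count of 0 was 1 with DESeq2 (Pcdh11x) and 22 with the adjusted p alone, all gamma entries, and 0 under the other alternatives apart from the block below. Leaving out each mouse gave 0 to 23. It was 23 without the second Ctrl + Morphine mouse (22 gamma entries and Pcdh11x), 1 without the fourth Kdm7a-shRNA + Morphine mouse (Pcdh8) and 1 without the first Ctrl + Saline mouse (Pcdhb7). The averaged count of 2 was 1 with at least 10 counts in every mouse, which removes Pcdh8, 4 with libraries scaled by size alone and 25 with the adjusted p alone. Leaving out each mouse gave 2 to 5, with 5 without the fourth Kdm7a-shRNA + Morphine mouse and 4 without the fourth Kdm7a-shRNA + Saline mouse, and Pcdh17 and Pcdh8 passed in all 16 such fits. The cause of these changes was not tested. The counts of 0 for both morphine comparisons and for the interaction were 0 under every alternative run. The fit of the compared groups alone was not run for the averaged comparison and the interaction, which need all groups. Counting the alpha and gamma clusters as 1 entry each, an alternative chosen after seeing the data, gave 2, 0 and 2 for the knockdown comparisons.

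Mice with the same number are different animals. Over all groups, their deviations from group means correlated at -0.10 to 0.39, over 0.1 in 6 of 21 pairs, and a mouse correlated best with its own number in 14 of 42 cases. Between the Ctrl groups all 3 such pairs were over 0.1, as was a pair with different numbers (0.133). The count for morphine in Ctrl mice was 0 with the block too. With a replicate block the counts were 3 under saline, 1 under morphine (Pcdh8, adjusted p = 0.046) and 4 averaged (Cdh12, Cdh13, Pcdh8 and Pcdh17), and the block with the length trend removed gave 1 under morphine and 4 averaged.

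The adjusted p of Pcdhgb4 under morphine rose above 0.05 without Kdm7a-shRNA + Morphine mouse 1, 2 or 3, Ctrl + Morphine mouse 1, 3 or 4 or Kdm7a-shRNA + Saline mouse 2, and with the compared groups alone (0.0769) or known genes only (0.0723). That of averaged Cdh13 did so without Kdm7a-shRNA + Morphine mouse 1 or 3, Ctrl + Morphine mouse 1, 2 or 4, Kdm7a-shRNA + Saline mouse 1, 2 or 3 or Ctrl + Saline mouse 2. Over all tested entries, scaling by size alone changed the calls under saline from 1398 higher and 1753 lower to 967 and 2342. Low counts limit Cdh5, Pcdh8, Pcdh11x, Pcdh20 and the beta protocadherins.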

Other observations

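Members outside the fixed set of named genes gave further values under knockdown, chosen after their values were seen. Cdh12, a type II cadherin, was at 2.12 ± 0.352 (SD, n = 3) normalized CPM in Ctrl + Saline and 1.17 ± 0.517 (n = 5) in Kdm7a-shRNA + Saline mice, with an averaged log2 fold change of -0.85 (adjusted p = 0.061). Pcdhb3 had an averaged log2 fold change of 0.74 (adjusted p = 0.0664), and Pcdhb7 was at 1.07 under morphine (adjusted p = 0.102). Pcdh15 and Cdh23, which together form the tip link of hair cells in the inner ear, had averaged log2 fold changes of 0.02 (adjusted p = 0.975) and 0.73 (adjusted p = 0.361), the latter on 0 to 38 counts per mouse.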
